A study of Mus musculus with 18 samples.

Results

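Livers of mice taken 3 days after injury without MycER activation (group 3OFF, 3 mice) were compared with livers taken 2 days after injury without MycER activation (group 2OFF, 3 mice). These 6 libraries were all of the libraries with those labels, out of 18 in the series, and none was left out of the main comparison. In MycER the transcription factor MYC is joined to the hormone-binding part of the estrogen receptor, so that tamoxifen switches it on. Injury was by intraperitoneal carbon tetrachloride at 0.5 µL per g of body weight in oil, and MycER was activated in the study by daily intraperitoneal tamoxifen at 1 mg. The other groups held 3 mice each: day 12 after injury without activation (12), day 12 with activation (12ON), and days 1 and 7 without activation (1OFF and 7OFF). The labels do not give, for any group, the strain, age, sex, hour of killing or the promoter that drives MycER, nor whether MycER had been active earlier in the OFF groups. H19, a fetal liver transcript, took 1.64% to 2.97% of the counts in 2OFF and 0.652% to 1.70% in 3OFF, against 2.06% to 2.75% in 12ON and at most 0.013% in group 12. The H19 shares of 2OFF and 3OFF overlapped. Albumin, the defining transcript of hepatocytes, took 3.08% to 3.46% of the counts in 2OFF and 3.80% to 6.18% in 3OFF.

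MYC drives ribosome assembly, nucleotide synthesis and entry into the cell cycle, and hepatocytes that divide after an injury carry less of the RNA for their adult work. That adult work is zoned: hepatocytes around the central vein make glutamine and hold most cytochrome P450, while those around the portal vein make urea and glucose. The carbon tetrachloride used here is turned into its toxic form by CYP2E1 around the central vein. RNA came from whole liver, so fewer cells of a type and less RNA per cell cannot be told apart in any result below.

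Between 2OFF and 3OFF, 22 of 30 tested genes of mitosis, 14 of 30 MYC targets of the nucleolus and 2 of 14 fetal genes fell, and none of these lists held a gene that rose. In the other direction, 8 of 20 perivenous hepatocyte genes rose and 1 fell, and 6 of 20 genes of bile acid and sterol catabolism and 2 of 18 clock genes rose. In edgeR's quasi-likelihood test over all 18 libraries, 505 of 17789 genes were higher in 3OFF (2.84%) and 702 were lower (3.95%) at an adjusted p under 0.05. The change was at least 2-fold in 129 of the higher and 261 of the lower genes. The level in CPM (read counts scaled to a common library size) stood above 2OFF in every 3OFF mouse for 2395 genes (13.5%) and below it in every one for 2545 genes (14.3%). The smallest adjusted p was 0.0111, and 4476 genes had an unadjusted p under 0.05.

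The number of calls depended on which library was left out. Without 2OFF replicate 2, edgeR called 0 of 18150 genes (0%), with a smallest adjusted p of 0.0671 and 2891 genes at an unadjusted p under 0.05. DESeq2 called 263 genes higher and 380 lower in the same 17 libraries, and limma with sample quality weights called 95 and 208. All 1207 genes called with every library kept their sign without that library, and 1204 of them had an unadjusted p under 0.05 there. Their median absolute log2 fold change was 0.71 with it and 0.58 without it. Without 3OFF replicate 3 edgeR also called 0 genes (smallest adjusted p 0.0512), and without 3OFF replicate 2 it called 20 higher and 50 lower. Without 2OFF replicate 1 it called 362 higher and 559 lower, without 2OFF replicate 3 767 and 1030, and without 3OFF replicate 1 625 and 687. A group of 2 mice also gives the test less power, which was not separated from dependence on 1 mouse. When 2OFF and 3OFF were fitted alone, 1 gene passed, Keg1, named here after its value was seen, with an adjusted p of 0.0119. Of the 94 called genes picked by the naming rule, 6 passed in edgeR without 3OFF replicate 2. None passed without 2OFF replicate 2 or without 3OFF replicate 3, where edgeR called 0 of all genes. Without 2OFF replicate 2, 62 of 115 genes of that rule, called or not, passed in DESeq2. In limma with sample quality weights 18 of 116 did.

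**Figure D1:**
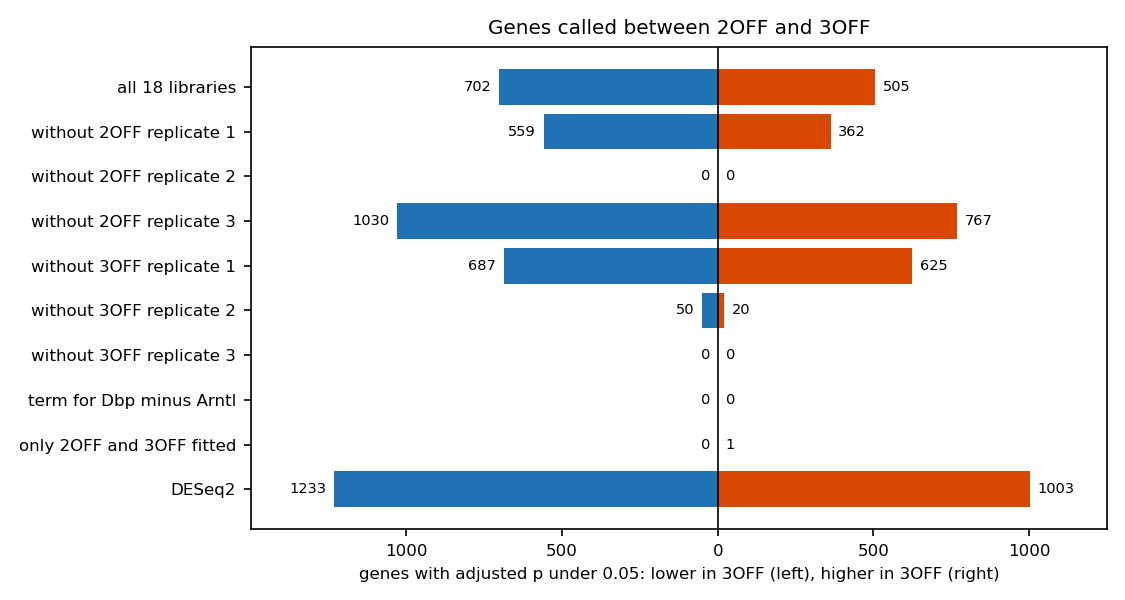
Number of genes with an adjusted p under 0.05 between 2OFF and 3OFF (horizontal axis, lower in 3OFF to the left and higher to the right) in 10 fits (rows). All 18 libraries gave 702 lower and 505 higher genes, and leaving out 2OFF replicate 2 or 3OFF replicate 3, or adding a term for the clock genes Dbp and Arntl, gave 0.

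**Figure D2:**
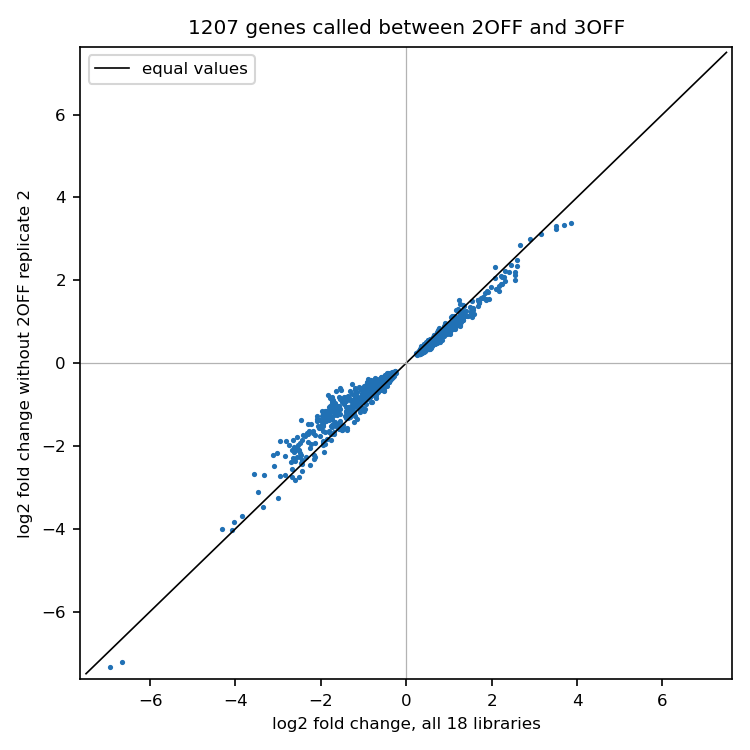
Log2 fold change, 3OFF minus 2OFF, of the 1207 called genes (points) with all 18 libraries (horizontal axis) and without 2OFF replicate 2 (vertical axis), with a line of equal values. Every point has the same sign on both axes, and many of the lower genes lie nearer to 0 without that library.

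2OFF replicate 2 stood apart from the other 2OFF mice. Over 11549 genes with a mean of at least 4 CPM, its median absolute log2 difference was 0.134 from the mean of 12ON, 0.150 from 1OFF, 0.194 from its own group and 0.285 from 3OFF. Replicates 1 and 3 were nearest to 1OFF, at 0.129 and 0.126, and lay at 0.151 and 0.136 from their own group. The mean of a mouse's own group left that mouse out and so rested on fewer mice than the other means. Distances from the own group and from other groups are therefore not fully alike. Replicate 2 was the lowest of the 2OFF mice in 410 of the 505 genes that were higher in 3OFF (81.2%, against 38.7% of all tested genes). It was the highest in 563 of the 702 lower genes (80.2%, against 37.4%). Those genes were called with this library in the fit, so the 2 shares are no separate evidence that it stood apart. The 6 libraries held 34.2 to 75.3 M counts and 2OFF replicate 2 was the shallowest. Mitochondrial transcripts took 6.69% to 7.00% of the counts in 2OFF and 5.36% to 7.18% in 3OFF, and 1 mouse in each group had Xist RNA above 100 CPM.

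The levels of most clock genes did not overlap between the groups. The labels give no hour of killing. Dbp, a transcription factor that the clock switches on once a day, stood at 14.8, 4.04 and 4.39 CPM in 2OFF replicates 1 to 3 and at 70.1, 102 and 189 CPM in 3OFF. All 3 of the 3OFF mice were far above 2OFF, with a log2 fold change of 3.93 ± 1.19 (SE) that did not pass (adjusted p = 0.0585). Arntl, which encodes the clock activator BMAL1 and peaks when Dbp is low, ran the other way, at 18.8, 17 and 21.1 CPM in 2OFF and 9.71, 4.40 and 1.52 CPM in 3OFF (log2 fold change -1.85 ± 0.65, adjusted p = 0.0913). Within 7OFF the same genes split the mice: replicate 1 had 115 CPM of Dbp and 2.97 CPM of Arntl, and the others had 2.62 and 3.50 CPM of Dbp and 35.0 and 33.9 CPM of Arntl. Dbp and Arntl are given here for their values, which were seen first.

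Of the 18 clock genes tested, 2 rose and none fell, while the levels of 11 lay above 2OFF and of 4 below it without overlap. Over all tested genes 13.5% lay above and 14.3% below in this way. Nr1d2, which encodes the clock repressor REV-ERBβ, had 42.7, 21.1 and 32.2 CPM in 2OFF and 78.3, 101 and 134 CPM in 3OFF. Its log2 fold change was 1.71 ± 0.44 (adjusted p = 0.0331) and 1.48 without 2OFF replicate 2 (adjusted p = 0.172). Bhlhe40, another clock repressor, had 59.2, 75.9 and 75.7 CPM in 2OFF and 158, 169.9 and 116 CPM in 3OFF (1.07 ± 0.30, adjusted p = 0.0436, and 0.148 without that library). The list's median log2 fold change was 0.87, and 0.70 without 2OFF replicate 2, against -0.01 over all tested genes in both fits. Day after injury and the clock genes moved together, and their parts cannot be told apart in these 6 mice.

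A fit with 1 term per library for Dbp minus Arntl (log2 CPM), added after these values were seen, called 0 of 17789 genes in edgeR. Its smallest adjusted p was 0.141, and 1975 genes had an unadjusted p under 0.05. All 1207 genes kept their sign with this term, with a median absolute log2 fold change of 0.53. The term differed between the groups without overlap, from -2.26 to -0.35 in 2OFF and from 2.85 to 6.92 in 3OFF, and it also varied within group 12 (-4.40 to 1.10) and within 7OFF (-3.72 to 5.25). None of the called genes named below passed with this term.

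**Figure D3:**
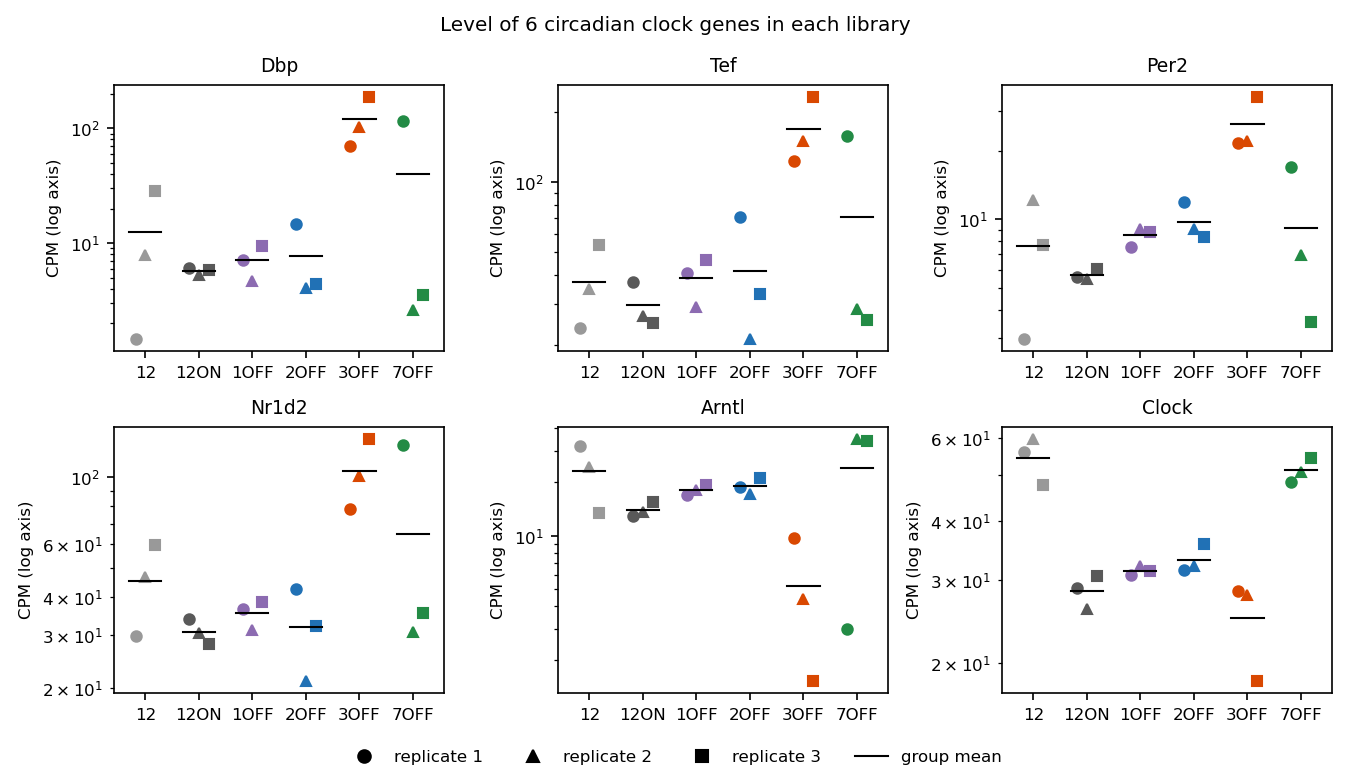
Level of 6 circadian clock genes (vertical axes, CPM, log scale) in the 3 libraries of each of the 6 groups (horizontal axes), with symbols for the replicate and a bar for the group mean. Dbp reaches 70.1 to 189 CPM in 3OFF and 4.04 to 14.8 CPM in 2OFF, and Arntl runs the other way. 7OFF replicate 1 lies within the range of 3OFF for Dbp, Tef, Nr1d2 and Arntl but not for Clock. For Per2 it lies between the groups, at 16.9 CPM.

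Genes of mitosis had the lowest median of the lists, -1.70, and -0.98 without 2OFF replicate 2. Of the 30 tested, 22 fell and none rose, and all 30 had a negative log2 fold change. The levels of 14 of the 30 lay below 2OFF in every 3OFF mouse, against 14.3% of all tested genes. The promoters of the 2 members that fell most are shown, and both carry the CCAAT box that is common among mitotic genes. Each is the 200 bases before the RefSeq start (build GRCm38.p6), with the letters CCAAT, and the letters TTTGAA of the cell cycle homology region, in capitals. The Cdc20 bases lie at chr4:118437344-118437543 and the Ccnb1 bases at chr13:100786487-100786686, both on the minus strand.
Cdc20: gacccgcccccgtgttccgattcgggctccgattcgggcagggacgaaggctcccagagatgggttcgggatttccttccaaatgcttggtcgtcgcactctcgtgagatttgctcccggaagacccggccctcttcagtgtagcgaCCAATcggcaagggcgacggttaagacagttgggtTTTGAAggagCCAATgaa
Ccnb1: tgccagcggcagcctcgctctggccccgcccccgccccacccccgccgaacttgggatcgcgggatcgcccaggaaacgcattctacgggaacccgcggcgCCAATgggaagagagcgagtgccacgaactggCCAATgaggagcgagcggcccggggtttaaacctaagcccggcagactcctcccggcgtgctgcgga

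Cdc20, which activates the ligase that ends metaphase, stood at 16.3, 26.7 and 5.04 CPM in 2OFF and at 3.06, 2.61 and 2.82 CPM in 3OFF. Its log2 fold change was -2.50 ± 0.52 (adjusted p = 0.0187), and -1.93 without 2OFF replicate 2 (adjusted p = 0.105). Ccnb1, which encodes cyclin B1, had 14.2, 24.5 and 5.26 CPM in 2OFF and 3.14, 2.36 and 2.55 CPM in 3OFF (-2.45 ± 0.51, adjusted p = 0.0187, and 0.108 without that library). In both genes the 3OFF mice were alike and the 2OFF mice were not: replicate 2 was highest and replicate 3 was nearest to 3OFF. The same order held for Plk1, a kinase of the spindle, at 10.1, 17.9 and 2.89 CPM against 2.33, 1.90 and 1.90 CPM. Hmmr, a spindle protein, had 12.3, 23.3 and 5.02 CPM against 3.06, 2.36 and 2.36 CPM. Mybl1, a MYB transcription factor of dividing cells, had 3.33, 16.0 and 6.54 CPM against 1.60, 1.45 and 2.25 CPM. Tpx2, a spindle assembly factor, and Ttk, the spindle checkpoint kinase, fell as well, with log2 fold changes of -1.97 and -2.10 that were -1.29 and -1.35 without 2OFF replicate 2. Without that library the adjusted p of these 7 genes ran from 0.0688 (Mybl1) to 0.142 (Plk1).

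The CCAAT letters, on either strand of the 250 bases before the start, were in 14 of the 17 mitosis genes that fell and had a matched RefSeq start (82.4%), in 19 of the 24 matched genes of the whole tested list (79.2%), and in 36.2% of the promoters of the 11426 tested genes with one. The letters TTTGAA or TTCGAA, on either strand, were in 5 of the 17 (29.4%), in 8 of the 24 (33.3%) and in 12.7% of all. The E-box CACGTG, the letters that MYC and its partner MAX bind, was in 2 of the 25 matched genes of the tested nucleolus list (8%), in 0 of the 11 of them that fell, and in 8.13% of all. A match describes the letters in this window and no more.

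Of 30 tested DNA replication genes, 7 fell and none rose, with a median log2 fold change of -0.78 that was -0.15 without 2OFF replicate 2. Mcm6, a subunit of the replicative helicase, had 22.6, 63.7 and 18.4 CPM in 2OFF and 16.2, 13.3 and 13.8 CPM in 3OFF (-1.27 ± 0.33, adjusted p = 0.0331). Replicate 2 alone was far above 3OFF, and without it the log2 fold change of Mcm6 was -0.51 (adjusted p = 0.149). Prim1, a DNA primase, had 5.26, 13.1 and 4.34 CPM against 2.88, 3.04 and 3.20 CPM. Pold1, the catalytic subunit of DNA polymerase delta, had 6.22, 9.77 and 7.98 CPM against 4.54, 3.96 and 3.90 CPM, with no overlap (-0.94 ± 0.22, adjusted p = 0.0266). Uhrf1, which keeps DNA methylation through replication, had 5.41, 20.4 and 5.28 CPM against 4.12, 2.68 and 3.74 CPM. With 2OFF replicate 2 left out, the log2 fold change went from -1.31 to -0.67 for Prim1 and from -1.55 to -0.61 for Uhrf1. Mcm10, a replication initiation factor that the list does not hold, rose, from 9.01, 9.04 and 17.7 CPM to 28.4, 56.4 and 57.1 CPM (1.99 ± 0.51, adjusted p = 0.0332, and 0.167 without 2OFF replicate 2). Mcm10 ranged from 14.4 to 102 CPM in 7OFF.

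Of 24 tested p53 targets and inhibitors of cyclin-dependent kinases, 4 fell and none rose, and the list's median was -0.28, or 0.02 without 2OFF replicate 2. Cdkn1a, which encodes the inhibitor p21, stood at 81.8, 79.6 and 59.7 CPM in 2OFF and 34.9, 8.68 and 14.2 CPM in 3OFF. Here replicate 2 did not stand out, and the log2 fold change was -1.94 ± 0.47 with it (adjusted p = 0.0296) and -1.88 without it (adjusted p = 0.126). Phlda3, Zmat3 and Tnfrsf10b, p53 targets of growth arrest and death signalling, fell, with log2 fold changes of -1.20, -0.78 and -1.08. These were -0.87, -0.43 and -0.61 without 2OFF replicate 2, with adjusted p of 0.203, 0.202 and 0.171.

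Of 30 tested MYC targets of the nucleolus, 14 fell and none rose, and all 30 had a negative log2 fold change, from -0.80 to -0.06. The median was -0.40, and -0.34 without 2OFF replicate 2. In 21 of the 30 every 3OFF mouse lay below every 2OFF mouse, against 14.3% of all tested genes. Ncl, which encodes the major nucleolar protein nucleolin, stood at 539, 579.9 and 512 CPM in 2OFF and at 366, 361 and 302 CPM in 3OFF, a log2 fold change of -0.66 ± 0.12 (adjusted p = 0.0123). Polr1a, the largest subunit of RNA polymerase I, had 40.6, 46.0 and 33.8 CPM against 29.8, 25.7 and 25.5 CPM (-0.57 ± 0.10, adjusted p = 0.0123). Nhp2, of the H/ACA ribonucleoproteins, had 36.8, 47.7 and 33.8 CPM against 25.2, 28.1 and 20.7 CPM. Polr1e, another polymerase I subunit, had 10.8, 12.1 and 10.3 CPM against 6.69, 7.78 and 5.18 CPM. In none of these 4 genes did the groups overlap. With 2OFF replicate 2 left out, their log2 fold changes ran from -0.68 to -0.46 and their adjusted p from 0.0688 to 0.119.

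Cytosolic ribosomal proteins had 1 gene that fell and none that rose among 30 tested, and 3.95% of all tested genes fell. All 30 had a negative log2 fold change, with a median of -0.27 and -0.32 without 2OFF replicate 2. The one that fell, Rpl35, had 166, 155 and 146 CPM in 2OFF and 132, 119 and 94.7 CPM in 3OFF, but 66.2% of its exon length is shared with Wdr38, and the counting used no strand. The adjusted p of Rpl35 was 0.0454, and 0.157 without 2OFF replicate 2. Of 25 tested genes of nucleotide, one-carbon and polyamine synthesis, 6 fell and none rose (median -0.32, and -0.26 without that library). Ctps, which makes CTP, had 21.4, 35.4 and 21.2 CPM against 14.4, 13.7 and 10.0 CPM (-1.03 ± 0.19, adjusted p = 0.0134). Adsl, of purine synthesis, had 33.7, 33.0 and 27.9 CPM against 22.4, 21.2 and 18.6 CPM (-0.61 ± 0.11, adjusted p = 0.0123). Mthfd1l, of mitochondrial folate metabolism, fell (log2 fold change -0.95), as did Atic, of purine synthesis (-0.47). Once 2OFF replicate 2 was removed, the adjusted p was 0.0688 for Ctps and 0.0738 for Adsl.

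Myc and Esr1, the mouse genes of the 2 proteins that are joined in MycER, did not pass. Myc RNA stood at 5.60, 7.37 and 8.61 CPM in 2OFF and 7.48, 5.88 and 10.9 CPM in 3OFF, and the groups overlapped (0.17 ± 0.25, adjusted p = 0.718). Without 3OFF replicate 3 its log2 fold change was -0.10. Esr1, the estrogen receptor, had 12.9, 7.72 and 20 CPM against 13.4, 14.4 and 23.7 CPM (0.34 ± 0.33, adjusted p = 0.557). Their means were 6.26 ± 0.978 and 10.1 ± 1.18 CPM in 12ON and 7.37 ± 1.88 and 38.1 ± 4.08 CPM in group 12 (SD, n = 3). Whether reads of the fusion were counted on either gene was not tested.

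Among fetal and progenitor genes, 2 of 14 tested fell and none rose, with a median of -0.50 and -0.60 without 2OFF replicate 2. H19, a member of this list, did not pass (-0.91 ± 0.60, adjusted p = 0.372, and 0.557 without that library). Dlk1, a fetal liver membrane protein of the Notch ligand type, was the lowest of the named genes. It stood at 33.8, 33.4 and 3.81 CPM in 2OFF and at 1.56, 1.66 and 0.217 CPM in 3OFF, a log2 fold change of -4.32 ± 0.77 (adjusted p = 0.0123). Its value without 2OFF replicate 2 was -4.00 (adjusted p = 0.0688), and 2OFF replicate 3 was the mouse nearest to 3OFF. Afp, the fetal albumin, had 54.4, 119.9 and 9.48 CPM against 11.2, 8.16 and 6.86 CPM, and replicate 3 lay within the range of 3OFF (-2.81 ± 0.71, adjusted p = 0.0326). Its log2 fold change was -1.88 without 2OFF replicate 2 (adjusted p = 0.194).

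The other genes with the lowest log2 fold changes were Bex1, Styk1, Gipc2, Shisa8, Tubb2a and Tubb2b. Bex1, a small protein first known from the brain, had 7.92, 18.7 and 2.19 CPM against 1.38, 0.647 and 0.352 CPM, with 18.8% of its exon length shared with Tceal7. Styk1, a receptor-like kinase, had 14.2, 24.4 and 4.2 CPM against 3.04, 1.01 and 0.136 CPM. Gipc2, a PDZ-domain protein, had 7.95, 16.3 and 8.03 CPM against 2.11, 1.24 and 2.30 CPM, so that all 3 of the 2OFF mice were well above 3OFF (-2.52 ± 0.41, adjusted p = 0.0116). Shisa8, a membrane protein, had 33.5, 16.5 and 16.0 CPM against 5.86, 5.08 and 1.22 CPM (-2.43 ± 0.42, adjusted p = 0.0121), and its log2 fold change was -2.60 without 2OFF replicate 2. The tubulin genes Tubb2a and Tubb2b fell, with log2 fold changes of -2.18 and -2.42. They are near-identical, so reads can be assigned between them with error. In the fit of 17 libraries without 2OFF replicate 2, the adjusted p of these 6 genes ran from 0.0671 (Gipc2 and Shisa8) to 0.134 (Tubb2a).

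**Figure D4:**
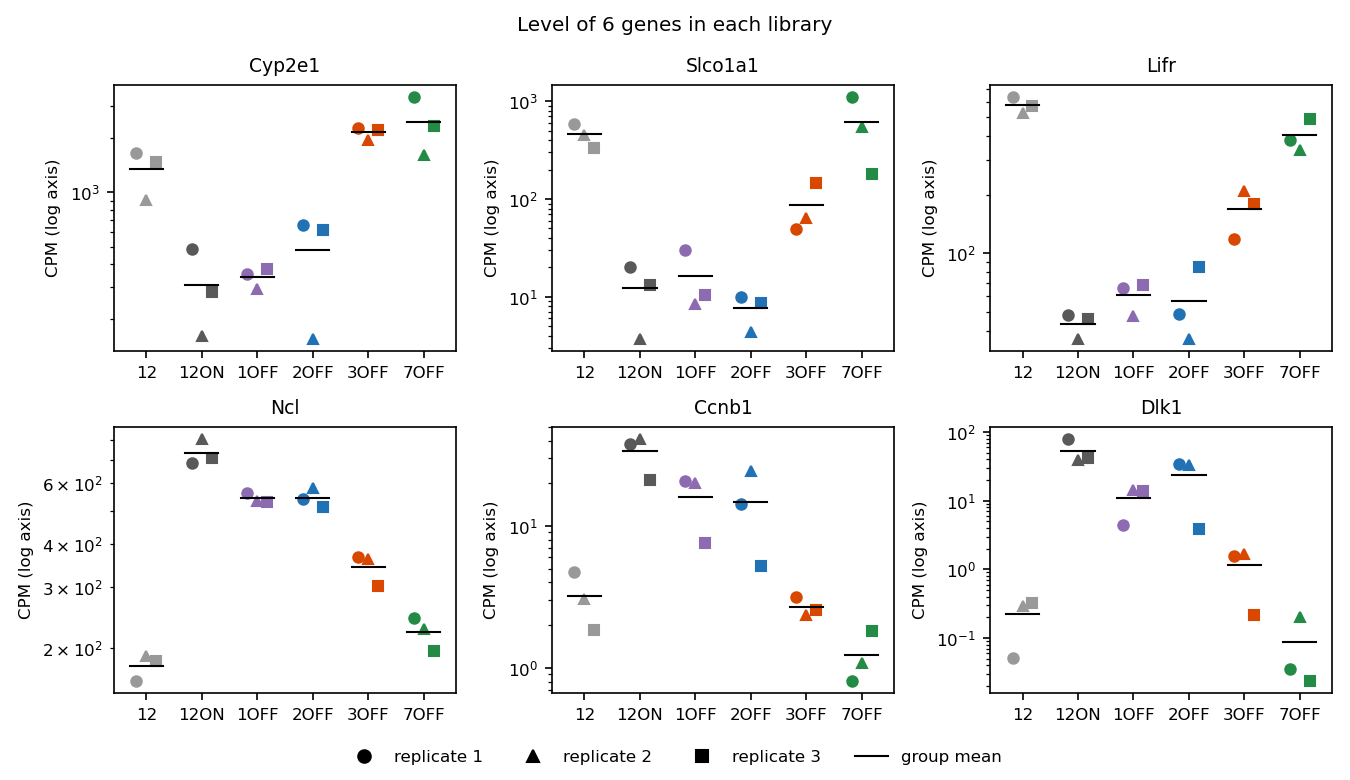
Level of 6 genes (vertical axes, CPM, log scale) in the 3 libraries of each of the 6 groups (horizontal axes), with symbols for the replicate and a bar for the group mean. Cyp2e1, Slco1a1 and Lifr lie higher in every 3OFF library than in 2OFF, Ncl, Ccnb1 and Dlk1 lie lower, and 2OFF replicate 2 is the 2OFF library farthest from 3OFF for Cyp2e1, Slco1a1, Lifr, Ncl and Ccnb1.

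Of 20 tested perivenous hepatocyte genes, 8 rose, 1 fell and 11 did not pass, and the median of the list was 0.95 with all libraries and 0.70 without 2OFF replicate 2. Cyp2e1, which turns carbon tetrachloride into its toxic form, stood at 658, 154 and 621 CPM in 2OFF and at 2265, 1953 and 2220.3 CPM in 3OFF. The log2 fold change was 2.17 ± 0.47 (adjusted p = 0.0219), and 1.74 without 2OFF replicate 2 (adjusted p = 0.0798). Replicate 2 was the lowest 2OFF mouse, yet the other two were also well under all 3 of the 3OFF mice. Glul, the glutamine synthetase of the cells next to the central vein, had 249, 196 and 374 CPM against 464, 659.9 and 602 CPM (1.07 ± 0.23, adjusted p = 0.0199). Rgn, a calcium-binding lactonase of vitamin C synthesis, had 316, 142 and 286 CPM against 546, 665 and 663 CPM (1.33 ± 0.26, adjusted p = 0.0148). The member that fell was Gstm3, a glutathione transferase, at 221, 625 and 316 CPM against 103, 98.0 and 186 CPM (-1.58 ± 0.36, adjusted p = 0.0250). When 2OFF replicate 2 was left out, the adjusted p of these 4 genes ran from 0.0688 (Rgn) to 0.148 (Gstm3).

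Periportal genes did not move one way. Of 20 tested, 1 rose and 2 fell, and over all tested genes 2.84% rose and 3.95% fell. The list's median of 0.29 was 0.04 without 2OFF replicate 2. Fbp1, of gluconeogenesis, rose from 584, 277 and 447 CPM to 604, 899 and 1243 CPM (1.07 ± 0.27, adjusted p = 0.0320). Gldc, of glycine cleavage, fell from 408, 332 and 305 CPM to 266, 171 and 104 CPM (-0.95 ± 0.25, adjusted p = 0.0341). Hsd17b13, a lipid droplet enzyme, had 942, 955 and 941 CPM in 2OFF and 756, 677 and 678 CPM in 3OFF (-0.43 ± 0.10, adjusted p = 0.0287). Without 2OFF replicate 2 the adjusted p was 0.157, 0.130 and 0.116 for Fbp1, Gldc and Hsd17b13. Whether perivenous and periportal genes differ in this step was not tested.

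In the list for bile acid and sterol catabolism, 6 of 20 tested genes rose and none fell (median 0.60, and 0.40 without 2OFF replicate 2). Slco1a1, a transporter that takes up bile acids and organic anions and is higher in male liver, had 9.86, 4.39 and 8.56 CPM in 2OFF and 49.4, 64.5 and 147 CPM in 3OFF. Its log2 fold change of 3.51 ± 0.73 (adjusted p = 0.0187) was the highest of the genes picked by the naming rule. It was 3.23 without 2OFF replicate 2 (adjusted p = 0.109). The highest level of Slco1a1, 147 CPM, was in 3OFF replicate 3, the 3OFF mouse with Xist RNA. Abcg5 and Abcg8, whose proteins pair to pump sterols into bile, rose together: Abcg8 had 20.8, 11.8 and 13.6 CPM against 54.9, 70.3 and 93.0 CPM (2.24 ± 0.37, adjusted p = 0.0116). Abcg5 had 35.6, 18.6 and 19.2 CPM against 55.3, 76.8 and 115 CPM (1.75 ± 0.35, adjusted p = 0.0168). Akr1c6, a hydroxysteroid dehydrogenase, rose by 0.98 on the log2 scale. With 2OFF replicate 2 left out, the adjusted p was 0.0688 for Abcg8 and 0.0995 for Abcg5.

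Major urinary proteins and other sex-biased liver genes had the highest median of the lists, 2.40, and 2.19 without 2OFF replicate 2. Of 19 tested, 4 rose and none fell, and 10 lay above 2OFF without overlap, against 13.5% of all tested genes. Mup3 had 134, 65.4 and 119 CPM in 2OFF and 511, 808 and 601 CPM in 3OFF (2.59 ± 0.73, adjusted p = 0.0466), and Mup21 had 9.36, 5.30 and 8.46 CPM against 32.2, 49.8 and 40.1 CPM. Members of this family are nearly identical, so the split of reads between them is uncertain. Cyp2a4, a steroid hydroxylase, rose from 15.7, 23.6 and 37.8 CPM to 57.8, 169.6 and 463 CPM (3.16 ± 0.65, adjusted p = 0.0178). Its near-identical neighbour Cyp2a5 rose from 58.1, 77.1 and 127 CPM to 176, 308 and 816 CPM (2.31 ± 0.57, adjusted p = 0.0299). In both Cyp2a genes 3OFF replicate 3, 1 of the 2 mice with Xist RNA, was the highest. Without that mouse the log2 fold change was 2.15 for Cyp2a4 (adjusted p = 0.0960) and 1.47 for Cyp2a5 (adjusted p = 0.154). With a term for Xist in the fit 495 genes were higher and 688 lower. Once 2OFF replicate 2 was removed, the adjusted p of these 4 genes ran from 0.0995 to 0.208.

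The other genes with the highest log2 fold changes were Inf2, Upp2, Coq10b and Dio1. Inf2, a formin of the actin cytoskeleton, stood at 69.8, 87.0 and 72.6 CPM in 2OFF and 312, 794 and 594 CPM in 3OFF (2.89 ± 0.48, adjusted p = 0.0116). Its log2 fold change was 2.99 without 2OFF replicate 2 (adjusted p = 0.0671), and it ranged from 67.7 to 367 CPM in 1OFF. Upp2, the liver uridine phosphorylase, had 75.0, 18 and 69.7 CPM against 254, 221 and 476 CPM. Coq10b, a coenzyme Q protein, had 10.9, 10.6 and 11.9 CPM against 28.1, 44.5 and 69.2 CPM (2.08 ± 0.45, adjusted p = 0.0199). Dio1, which activates thyroid hormone, had 24.1, 13.9 and 20.9 CPM against 38.8, 99.2 and 85.3 CPM. With the term for Dbp minus Arntl the log2 fold change was 0.74 for Coq10b, 1.16 for Upp2, 1.05 for Dio1 and 3.31 for Inf2. In the fit of 17 libraries without 2OFF replicate 2, the adjusted p was 0.181, 0.105 and 0.126 for Upp2, Coq10b and Dio1.

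Genes of fatty acid oxidation and targets of PPARA, the receptor that switches on lipid burning in fasting, held 4 of 25 that rose and none that fell. Their median was 0.46, 0.42 without 2OFF replicate 2 and -0.13 with the clock term. Fabp1, the liver fatty acid carrier, had 408, 622 and 349 CPM against 648, 1344 and 1260.1 CPM (1.24 ± 0.34, adjusted p = 0.0430). Ehhadh, of peroxisomal oxidation, overlapped, at 274, 215 and 538 CPM against 436, 1082 and 1844 CPM. Vnn1, a pantetheinase, rose by 1.22. Of 18 tested genes of fatty acid synthesis 1 rose, against 2.84% of all tested genes. It was Fads1, a desaturase, which went from 76.5, 79.9 and 73.0 CPM to 121, 181 and 281 CPM (1.35 ± 0.30, adjusted p = 0.0221). The median of the fatty acid synthesis list, 0.26, was -0.17 with the clock term. Of 24 tested genes of cholesterol synthesis 2 rose, Tm7sf2 by 0.81 and Ebp by 0.59, both of the late pathway, with a list median of 0.12 and -0.19 with the clock term. Tm7sf2 shares 15.3% of its exon length with Vps51. When 2OFF replicate 2 was left out, the adjusted p of these 6 genes ran from 0.0906 (Vnn1) to 0.203 (Ehhadh).

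Gluconeogenesis and amino acid catabolism had 4 of 25 tested genes that rose and none that fell, with a median of 0.50 that was 0.22 without 2OFF replicate 2. G6pc, which releases glucose, had 155, 67.3 and 69.0 CPM against 283, 429 and 235 CPM (1.70 ± 0.45, adjusted p = 0.0376). Dpyd, of pyrimidine breakdown, rose by 0.76. Among 18 tested genes of glycolysis and fetal isozymes, Pfkp fell from 27.6, 25.7 and 19.2 CPM to 13.6, 14.3 and 12.4 CPM (-0.85 ± 0.21, adjusted p = 0.0286). Eno1 fell from 583, 753 and 464 CPM to 324, 435 and 382 CPM (-0.66 ± 0.18, adjusted p = 0.0432). Of 25 nuclear genes of the respiratory chain 1 rose, Ndufa1, by 0.32, and 2.84% of all tested genes rose. The list's median was 0.04. NRF2 targets held 3 of 19 that fell: the pentose phosphate enzyme Tkt (log2 fold change -0.48), the cystine carrier Slc7a11 (-0.95) and the glutathione reductase Gsr (-0.50, and -0.32 without 2OFF replicate 2). Without that library the adjusted p of these 8 genes ran from 0.0837 (Tkt) to 0.227 (Eno1).

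Of 26 tested secreted hepatocyte proteins 5 rose and none fell (median 0.42, and 0.29 without 2OFF replicate 2). Ttr, which carries thyroid hormone and retinol, had 1619, 1270.2 and 1291 CPM against 1920.5, 2456 and 3269.8 CPM (0.87 ± 0.22, adjusted p = 0.0312). Igf1, the growth factor the liver sends out under growth hormone, had 211, 218 and 341 CPM against 434, 461 and 487 CPM (0.84 ± 0.23, adjusted p = 0.0423). The apolipoproteins Apoc1 and Apoc3 rose by 0.77 and 0.54. Of 24 tested complement and coagulation genes 4 rose and none fell, with a median of 0.36 that was 0.20 without that library. Mbl2, a lectin that starts complement, had 72.4, 66.8 and 164 CPM against 203, 265 and 274 CPM, and C8g, F5 and Proc rose by 0.85, 0.76 and 0.61. None of 26 acute phase genes passed. Serpina3k, an acute phase serpin, had 485, 101 and 693 CPM against 1298, 1349 and 1106 CPM (1.55 ± 0.71, adjusted p = 0.188). With 2OFF replicate 2 left out, the adjusted p of the 8 called genes ran from 0.131 (Mbl2) to 0.197 (Igf1).

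Among 23 tested hepatocyte transcription factors, 2 rose and none fell, with a median of 0.34 and 0.30 without 2OFF replicate 2. Cebpa, which drives adult hepatocyte genes, had 348, 277 and 309.6 CPM against 547, 558 and 517 CPM (0.79 ± 0.20, adjusted p = 0.0328). Ppara had 65.0, 46.6 and 53.4 CPM against 85.8, 98.9 and 143 CPM (0.99 ± 0.24, adjusted p = 0.0281). With the clock term their log2 fold changes were 0.32 and 0.27. Growth signals and YAP targets held 2 of 17 tested genes that rose and none that fell. Lifr, the receptor for leukemia inhibitory factor, had 48.7, 36.4 and 84.5 CPM against 118, 208 and 178 CPM (1.57 ± 0.27, adjusted p = 0.0123), with 1.33 without 2OFF replicate 2 (adjusted p = 0.0688). With the clock term Lifr had a log2 fold change of 1.59 (adjusted p = 0.267). Ghr, the growth hormone receptor, had 169, 128 and 200.0 CPM against 246, 290.2 and 399.8 CPM. Without that library the adjusted p was 0.161 for Cebpa, 0.145 for Ppara and 0.227 for Ghr.

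Interferon response and antigen presentation held 4 of 26 genes that rose and none that fell, with a median of 0.50, 0.43 without 2OFF replicate 2 and 0.50 with the clock term. Isg15, a ubiquitin-like interferon product, had 4.31, 4.49 and 5.57 CPM against 7.46, 9.68 and 9.89 CPM (0.91 ± 0.21, adjusted p = 0.0263), with no overlap. H2-K1, a class I molecule, had 471, 332 and 646 CPM against 671, 1013 and 1038 CPM. Irf7, an interferon regulator, overlapped, at 40.2, 30.1 and 61.6 CPM against 55.8, 112 and 105 CPM, and Tap1, the peptide transporter, rose by 0.48. Once 2OFF replicate 2 was removed, the adjusted p ran from 0.133 (Isg15) to 0.223 (Irf7).

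Few markers of non-parenchymal cells passed, and few of all tested genes did (2.84% rose and 3.95% fell). None of 12 Kupffer cell markers passed, though all 12 had a positive log2 fold change (median 0.48, and 0.30 without 2OFF replicate 2). Their summed level was 1009 to 1739 CPM in 2OFF and 1561 to 2174 CPM in 3OFF. Of 18 sinusoidal endothelial markers 1 rose, the lectin Clec4g, by 0.51, and the sum was 420.5 to 579.9 CPM in 2OFF and 589 to 712 CPM in 3OFF. Of 21 monocyte and macrophage markers 1 fell, the tetraspanin Cd9, by 0.58, and Cd9 is not confined to those cells. Of 14 cholangiocyte markers 1 fell, Sox9, a factor of bile ducts and progenitors, from 11.7, 13.1 and 11.8 CPM to 6.55, 4.17 and 3.42 CPM (-1.37 ± 0.36, adjusted p = 0.0344), with a sum of 123 to 186 CPM in 2OFF and 143 to 153 CPM in 3OFF. None of 20 stellate cell and myofibroblast markers passed. Of 25 collagens and fibrillar matrix genes, Eln, which encodes elastin, fell (-1.51), as did Col4a1, of basement membranes (-0.69), with a median of -0.50 and -0.46 without 2OFF replicate 2. The protease Mmp13 fell by 1.77, at 1.69, 7.80 and 4.10 CPM against 1.20, 1.12 and 1.65 CPM. Without that library the adjusted p of these 6 genes ran from 0.125 (Eln) to 0.225 (Clec4g and Cd9), and Krt8, an epithelial keratin in the mesothelium list, fell by 0.93 (0.249 without it). The log2 fold changes without it were -1.12 for Mmp13 and -0.47 for Krt8.

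No marker of neutrophils (12 tested), B and plasma cells (10), T and NK cells (14) or red cells and platelets (12) passed. Over all tested genes 2.84% rose and 3.95% fell, so lists this short can hold none. Neutrophil markers summed to 979 CPM in 3OFF replicate 1 and to 216 and 137 CPM in the other 3OFF mice, against 314 to 496 CPM in 2OFF. Red cell and platelet markers summed to 248 to 474 CPM in 2OFF and 139.8 to 751 CPM in 3OFF. Their part in the results was not tested. None of 20 genes of the unfolded protein response, 21 immediate early genes or 19 chemokines and cytokines passed either. Il1b, an inflammatory cytokine, had 3.36, 6.06 and 8.10 CPM against 10.6, 31.3 and 8.02 CPM (1.53 ± 0.46, adjusted p = 0.0559). The 5 of fat, pancreas and brown fat (Adipoq, Cpa1, Pnlip, Prss1 and Ucp1) were under 0.1 CPM in all 6 libraries.

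**Figure D5:**
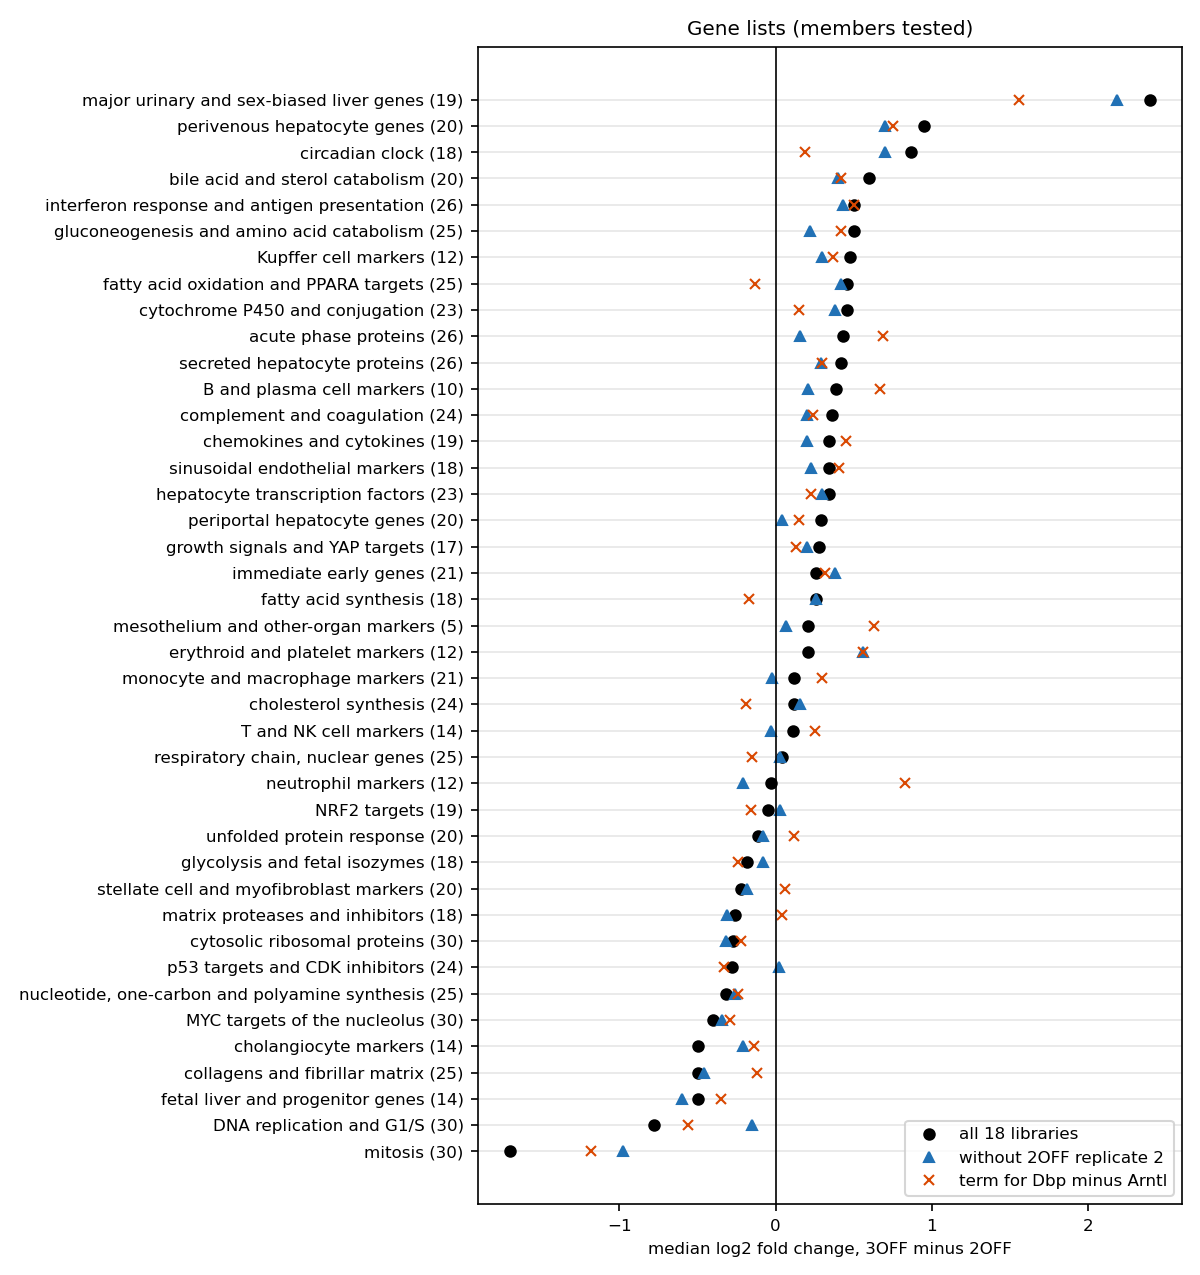
Median log2 fold change, 3OFF minus 2OFF (horizontal axis), of the tested members of 41 gene lists (rows, with the number tested), with all 18 libraries (circles), without 2OFF replicate 2 (triangles) and with a term for Dbp minus Arntl (crosses). Major urinary and sex-biased genes lie highest at 2.40 and mitosis lowest at -1.70, mitosis and DNA replication lie nearer to 0 without 2OFF replicate 2, and fatty acid oxidation lies at -0.13 with the clock term.

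Whether this step differed from the one before it was tested as a contrast of both, which share the 2OFF mice. The log2 fold change from 2OFF to 3OFF differed from that from 1OFF to 2OFF in 0 of 17789 genes in edgeR (0%), with 1776 genes at an unadjusted p under 0.05, and in 27 genes in DESeq2 and 0 in limma with sample quality weights. Against the step from 3OFF to 7OFF, which spans more days and shares the 3OFF mice, 23 genes differed (0.129%), and 2 without 2OFF replicate 2, Ly9 and Ubd. With the clock term 0 differed in edgeR, with 1731 genes at an unadjusted p under 0.05. Ly9, a receptor of lymphocytes and macrophages, had a mean of 8.40 ± 0.379 CPM (SD, n = 3) in 2OFF, 10.5 ± 0.244 in 3OFF and 4.88 ± 0.733 in 7OFF. Its 2 steps differed by 1.43 ± 0.17 (SE, adjusted p = 0.00511, and 0.0229 without 2OFF replicate 2). In the step from 2OFF to 3OFF itself Ly9 did not pass (adjusted p = 0.0569), and its mean fell after 3OFF. Ubd, a ubiquitin-like protein that inflammatory cytokines raise, had 26.7 ± 8.84, 27.7 ± 5.39 and 3.29 ± 0.575 CPM (SD, n = 3), so its drop lay after 3OFF (difference of steps 3.13 ± 0.45, adjusted p = 0.0365). Cyp2g1, a P450, went from 0.771 ± 0.391 CPM to 3.58 ± 1.18 and back to 0.459 ± 0.463 (SD, n = 3), with a difference of 5.14 ± 0.89 (adjusted p = 0.0419, and 0.110 without 2OFF replicate 2). Cyp2g1 did pass from 2OFF to 3OFF (adjusted p = 0.0299).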

How the data were processed

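The libraries, 3 mice in each of 6 groups, were 50 nt single-end reads of liver poly-A RNA. Trim Galore, TopHat2 and the build mm10 are named in the submitters' processing notes, and their versions are not given in the sources used here. Per the file headers, the authors counted reads over exons of Ensembl 82 genes with featureCounts 1.5.0-p1, without strand, counting a read for every gene it overlapped by at least 10 bases. The deposited values are raw counts per gene for 34937 genes. A reference table named 34599 of them.

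Depth ran from 23.1 to 75.3 M counts a library. Counts of replicates differed far beyond sampling noise, with a chi-square per gene of 33.9 to 310. After a filterByExpr filter (minimum count 10) and TMM scaling, all 18 libraries were fitted with the quasi-likelihood test of edgeR 4.0.16 in R 4.3.3, two-sided, with Benjamini-Hochberg adjustment over all tested genes. The fit had 12 residual degrees of freedom. Adjusted p-values in the text are from this test unless another tool is named, and ± after a log2 fold change is its SE, the which is its size over the square root of F. CPM values are TMM-scaled. Nothing states whether mice were pooled, and p-values measure the spread between these libraries.

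The other fits used DESeq2 1.42.0, limma 3.58.1 voom with sample quality weights, DESeq2's size factors, no filter, 2OFF and 3OFF alone, a replicate block, terms for Xist and the mitochondrial share, a test against a 1.5-fold change, and each library left out. A term for Dbp minus Arntl and a fit without 7OFF were added after the data were seen. The fit was also run on simulated data. Those data held no library that stood apart from its group and no shift set for the clock genes. They therefore do not bear on how the calls depend on either.

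Members, 41 lists (839 entries, 834 found, 820 tested) and tests were chosen with earlier results of these data known. Lists are described by counts and medians and were given no test of their own. Named genes were Myc and Esr1. To these came the 12 highest and 12 lowest log2 fold changes among called genes with a symbol, 4 CPM or more on average and groups that do not overlap, and up to 4 called members of a list in each direction, or the 2 with the smallest p where none passed. The 8 genes highest and the 8 lowest in 2OFF replicate 2 against its group were named as description. A few genes picked by the rule are not reported here. Promoters are RefSeq's (GRCm38.p6), matched by symbol, strand and a start within 1000 bases, for 11426 of 17789 tested genes.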

Additional observations from a re-analysis of the deposited data

Results flagged for a closer look

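The change from 2OFF to 3OFF differed from the change from 3OFF to 7OFF in 23 genes (edgeR, adjusted p under 0.05), by a test of the difference of the 2 steps. In 20 of them the difference was positive and in 3, Clock, Ddc and Recql, it was negative. Among the 20, Clec7a, a fungal sugar receptor, had a mean of 30.2 ± 2.00 CPM (SD, n = 3) in 2OFF, 29.0 ± 4.90 in 3OFF and 11.3 ± 0.840 in 7OFF. Cd68, a lysosomal protein, had 29.4 ± 3.55, 34.7 ± 4.00 and 17.1 ± 2.48 CPM, and the chemokine Ccl6 had 43.5 ± 7.92, 55.0 ± 11.3 and 14.8 ± 1.93 CPM (SD, n = 3). Clock had 33.1 ± 2.36, 24.9 ± 5.67 and 51.2 ± 3.01 CPM (SD, n = 3). In the step from 2OFF to 3OFF itself Clec7a, Cd68, Ccl6 and Clock did not pass (adjusted p = 0.802, 0.292, 0.416 and 0.0729). Others of the 23, such as Ddc, did (adjusted p = 0.0288). The means of Clec7a, Cd68 and Ccl6 fell after 3OFF. The genes named here were picked after their values were seen. Without 2OFF replicate 2 only Ly9 and Ubd passed, and with the term for Dbp minus Arntl none did.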

How the results depend on the processing

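Counts of genes higher and lower in 3OFF, 505 and 702, were 1003 and 1233 in DESeq2, 375 and 455 in limma with sample quality weights, 283 and 483 with a term for the mitochondrial share, 1 and 0 in the 2 groups alone, and 0 and 0 in a test against a 1.5-fold change or with the term for Dbp minus Arntl (1975 genes at an unadjusted p under 0.05). Leaving out 1 library gave 0 to 767 higher and 0 to 1030 lower. The replicate block gave 741 and 854. Same-numbered mice of 2OFF and 3OFF did not deviate together (correlations of 0.052, 0.055 and -0.016), and no mouse correlated best with its own number.

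Without 2OFF replicate 2, where edgeR called 0 and 0, the counts were 22 and 49 with the replicate block, 263 and 380 in DESeq2, 95 and 208 in limma, 15 and 36 without the 7OFF group, and 0 to 89 and 0 to 139 with a further library left out. Against the step from 1OFF to 2OFF, 0 genes became 27 in DESeq2, 1 (Gm28874, seen first) in the groups alone and 0 to 12 leaving out a library. Against the step from 3OFF to 7OFF, 23 genes became 62 with the replicate block, 452 in DESeq2, 188 in limma, 45 with the Xist term, 1 (Ly9) with the mitochondrial term, 0 in the groups alone, 0 against a 1.5-fold change, 0 with the term for Dbp minus Arntl, and 1 to 292 leaving out a library.

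Leaving out 1 library, Myc ran from -0.10 (without 3OFF replicate 3) to 0.36. Once 2OFF replicate 2 was out, Myc ran from -0.09 to 0.52 and Esr1 from -0.23 to 0.40, both negative without 2OFF replicate 1 (-0.09 and -0.22) or 3OFF replicate 3 (-0.08 and -0.23). With the term for Dbp minus Arntl, Cxcr2 turned to 0.23, Itga2b to 0.01 and Retnlg to 0.02, and, without 2OFF replicate 2, Cxcr2 to 0.15, Herpud1 to -0.04 and Pdgfrb to 0.01. None of these had passed. No called gene of the naming rule changed sign in any fit. The causes were not tested. DESeq2 gave no adjusted p to genes it filtered. With a single 2OFF mouse left, that mouse is assumed to vary like the other groups.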

Other observations

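The genes given here were picked because 2OFF replicate 2 lay far from its group in them. Pck1, the rate-limiting enzyme of gluconeogenesis, had 152 CPM there against 1439 and 803 CPM in replicates 1 and 3, and 2192 to 3549.8 CPM in 3OFF. The acute phase genes Saa1 and Saa2 had 24.7 and 13.1 CPM against 134 and 378 CPM, and 72.2 and 199 CPM. Cyp17a1, of steroid synthesis, had 11.1 CPM against 94.4 and 183 CPM, and Nnmt, which methylates nicotinamide, 0.984 CPM against 12.9 and 29.0 CPM. On the other side, Pnpla3, a lipid droplet lipase, had 15.7 CPM against 2.32 and 4.53 CPM, and Hells, a chromatin remodeller of dividing cells, 16.0 CPM against 4.14 and 3.26 CPM. Sprr1a had 13.8 CPM against 0.464 and 5.43 CPM, and Shc2 had 9.29 CPM against 1.37 and 2.03 CPM. The 3OFF values of Saa1 (332, 488 and 49.6 CPM) and of Cyp17a1 (113, 122 and 62.1 CPM) overlapped those of 2OFF, and Saa1 ranged from 6.77 to 197 CPM within 12ON.

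H2-Eb1, a class II gene, had 1.44 CPM in 2OFF replicate 2 against 28.6 and 38.0 CPM in its group, and its lowest level in 1OFF was 2.39 CPM. Gm43549 had 1.01 CPM against 70.2 and 93.2 CPM, with a lowest level of 1.05 CPM in 1OFF. Syn2, a synapsin, had 3.99 CPM against 12.5 and 71.5 CPM.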
